A study of Mus musculus with 15 samples.

Results

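The lining of the brain ventricles was followed through 10 marker genes in 15 RNA-seq libraries of mouse corpus callosum. Of these 10 genes, 4 mark ependymal cells (Foxj1, Tmem212, Ccdc153 and Dynlrb2) and 6 mark the epithelium of the choroid plexus (Ttr, Folr1, Clic6, Kcnj13, Kl and Otx2). They were taken by gene symbol from a table of 33321 genes, and all 10 were among the 16795 genes with enough counts to be tested. The libraries fell into 5 groups of 3. Sham_Ipsil was the place where sham-operated mice had received saline. LPC_Ipsil was the site injected with LPC (lysophosphatidylcholine, a lipid that strips myelin), and LPC_Contra was the tissue on the opposite side of those brains. LNIO_Ipsil was the site injected with L-NIO (an inhibitor of nitric oxide synthase that is used to make focal ischaemia in white matter), and LNIO_Contra was its opposite side. Both sides of the injured brains were sampled on day 4; the labels name no day for the sham tissue and no strain, age or sex. They also do not say whether each library is a different mouse, so p-values measure the spread between libraries, which may be technical.

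Ependymal cells form a single ciliated layer on the wall of the ventricles, directly below the corpus callosum in the lateral ventricle, and their beating cilia move cerebrospinal fluid. Foxj1 is the transcription factor that switches on the genes of motile cilia, together with factors of the RFX family that bind the X-box of ciliary promoters. The choroid plexus hangs into the ventricle. Its epithelium secretes cerebrospinal fluid and makes transthyretin (Ttr) in large amounts, and neither cell type belongs to the white matter itself.

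The stretches of promoter that hold the X-box are shown for the 3 ependymal genes found in the RefSeq promoter table. The levels of these 3 genes went up and down together across the libraries, and the cause was not tested. Capitals mark the match to the X-box consensus bound by RFX factors, allowing a spacer of 1 to 3 bases, on either strand. Positions are on build GRCm38.p6, an older build than that of the counts, and each sequence reads towards its gene.
Tmem212: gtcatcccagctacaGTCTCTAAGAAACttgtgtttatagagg
Dynlrb2: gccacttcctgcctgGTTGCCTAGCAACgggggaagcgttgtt
Ccdc153: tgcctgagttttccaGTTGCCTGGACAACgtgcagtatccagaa
The Tmem212 stretch lies at chr3:27896408-27896450 on the minus strand, with the match 67 to 55 bases before the start of the gene. The Dynlrb2 stretch lies at chr8:116504949-116504991 on the plus strand, with the match 51 to 39 bases before the start. The Ccdc153 stretch lies at chr9:44240510-44240553 on the plus strand, with the match 152 to 139 bases before the start. Dynlrb2 and Ccdc153 also hold GTTGCC, the left part of the strict X-box, inside the longer match.

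Within the 250 bases before the start, the X-box consensus was found in 3 of 3 ependymal windows, 3 of 6 windows of the choroid plexus genes, 22 of 37 windows of other axoneme genes (59.46%) and 29.56% of all 32851 promoter windows. The shorter match GTTGCC was found in 2 of 3 ependymal windows and 10.43% of all windows. The FOX core GTAAACA was in none of the 9 windows of the members and in 3.166% of all windows. The OTX core GGATTA was in 1 of the 6 choroid plexus windows, a window of Otx2 itself, and in 6.252% of all windows. Of the 10 genes, 6 were matched in the table: Tmem212, Dynlrb2, Ccdc153, Kcnj13, Kl and Otx2, the last with 4 windows. These are matches of letters, and binding was not measured.

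The libraries held 14896445 to 20916606 counts. The myelin gene Mbp stood at the high level of white matter in every library, between 5153 and 9627 CPM (counts scaled to the library total with TMM factors). One library stood apart from its group. Over a list of 10 genes of lesion microglia, the summed level was 2645 CPM in LPC_Ipsil 1 and 1493 CPM in LPC_Ipsil 2, but 194 CPM in LPC_Ipsil 3. That value lies within the 169 to 202 CPM of the sham libraries, while the LNIO_Ipsil libraries ran from 489 to 918 CPM and the contralateral libraries from 137 to 234 CPM. Counts of called genes that involve LPC_Ipsil, and the values that moved, are therefore also given without its library 3. That library was singled out after the values were seen. It was also the highest of its group for each of the ependymal and choroid plexus genes, so leaving it out lowers their LPC_Ipsil levels.

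Per length, Ttr was by far the most abundant of the 10 genes, with a median of 80.4 FPKM over the 15 libraries. Foxj1 followed at 4.18 FPKM, Tmem212 at 2.29, Clic6 at 2.15, Dynlrb2 at 2.14, Ccdc153 at 1.95, Kl at 1.18, Folr1 at 0.511, Kcnj13 at 0.402 and Otx2 at 0.348 FPKM. The ranges over libraries of neighbours in this order overlapped, except that the lowest Ttr library (15.8 FPKM) lay above the highest Foxj1 library (5.95 FPKM).

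Foxj1, the master regulator of motile cilia, varied the least of the 10 genes, 2.50-fold between the lowest and the highest library. It stood at 8.07, 11.5 and 6.28 CPM in Sham_Ipsil 1, 2 and 3, at 13.5, 11.5 and 15.5 CPM in LPC_Ipsil, and at 11.2, 15.5 and 15.6 CPM in LPC_Contra. The LNIO_Ipsil libraries held 11, 11.9 and 15.7 CPM, and the LNIO_Contra libraries 11, 12.6 and 10.3 CPM. Sham libraries 1 and 3 were the lowest of all 15, and Sham library 2 lay within the range of the other groups.

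Tmem212, a membrane protein of ciliated ependymal cells, was low in sham and in LPC_Ipsil alike. Its levels were 0.777, 1.49 and 0.302 CPM in Sham_Ipsil and 0.664, 0.283 and 1.45 CPM in LPC_Ipsil. They were 2.24, 2.92 and 2.14 CPM in LPC_Contra, 1.89, 2.0 and 2.63 CPM in LNIO_Ipsil, and 1.44, 3.21 and 1.77 CPM in LNIO_Contra. All 3 libraries of LPC_Contra and of LNIO_Ipsil lay above all 3 of Sham_Ipsil and all 3 of LPC_Ipsil. These levels rest on 6 to 68 counts per library, so counting error adds to their spread. The spread between libraries beyond counting error was also high, with a biological coefficient of variation of 0.41, at percentile 92.0 of all tested genes.

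Ccdc153, a coiled-coil protein of ependymal cells, had its 2 lowest libraries of the series in the LPC lesions 1 and 2. It stood at 1.69, 0.897 and 5.68 CPM in LPC_Ipsil, against 3.70, 6.18 and 6.29 CPM in LPC_Contra. The sham libraries held 3.64, 4.26 and 1.96 CPM, the LNIO_Ipsil libraries 4.90, 3.45 and 8.18 CPM, and the LNIO_Contra libraries 3.74, 5.01 and 4.45 CPM. LPC_Ipsil 3, the library without the lesion microglia signal, was also the one with Ccdc153 in the range of the uninjured side.

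Dynlrb2, a light chain of the dynein motors that serve cilia, was likewise highest in library 3 of LPC_Ipsil. Its levels were 0.302, 0.567 and 1.57 CPM in LPC_Ipsil and 0.730, 2.63 and 1.62 CPM in LPC_Contra. They were 0.956, 1.28 and 0.503 CPM in Sham_Ipsil, 1.84, 0.889 and 2.43 CPM in LNIO_Ipsil, and 1.32, 2.17 and 1.22 CPM in LNIO_Contra. The lowest library, LPC_Ipsil 1, held 5 Dynlrb2 counts.

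**Figure D1:**
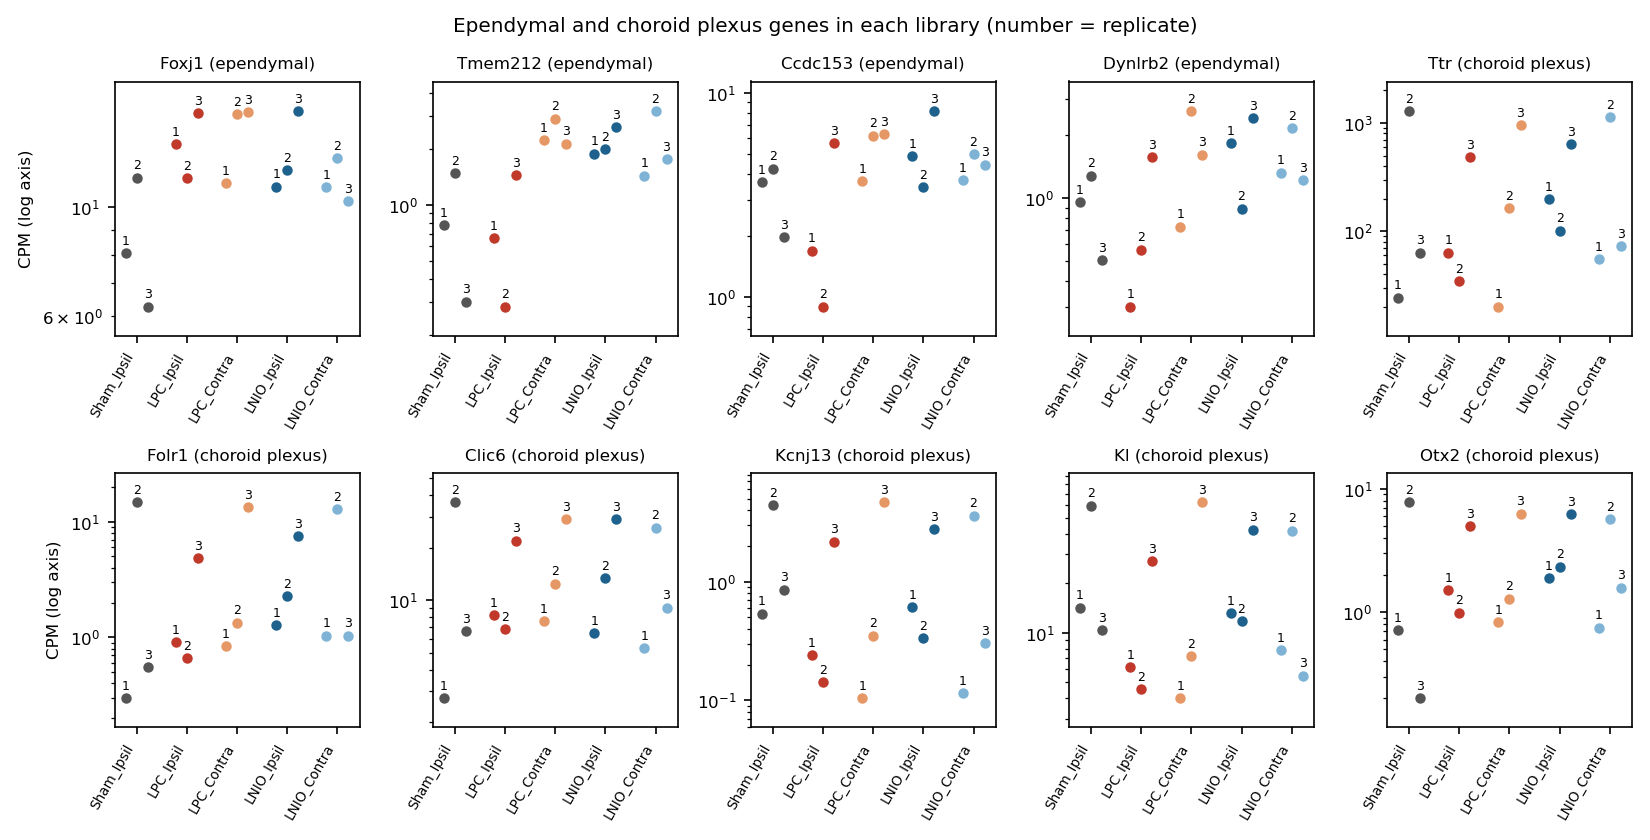
Level of each of the 10 genes (CPM, log axis) in every library, grouped by condition and numbered by replicate. In the panels of the 6 choroid plexus genes, 1 library of each group lies far above its 2 partners. These are Sham 2, LPC_Ipsil 3, LPC_Contra 3, LNIO_Ipsil 3 and LNIO_Contra 2. In the panels of Ccdc153, Tmem212 and Dynlrb2, LPC_Ipsil 1 and 2 lie low, as does Sham_Ipsil 3.

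Ttr, which carries thyroid hormone and retinol-binding protein in cerebrospinal fluid, varied 64.1-fold between the lowest and the highest library. It stood at 24.4, 1294 and 63.5 CPM in Sham_Ipsil 1, 2 and 3, at 63.3, 34.8 and 484 CPM in LPC_Ipsil, and at 20.2, 164 and 948 CPM in LPC_Contra. The LNIO_Ipsil libraries held 199, 101 and 641 CPM, and the LNIO_Contra libraries 55.5, 1139 and 72.9 CPM. Each group had 1 library far above its partners, and the sham group had the highest of all. Within a group the SD was about as large as the mean or larger: 461 ± 722 CPM in Sham_Ipsil (SD, n = 3), 194 ± 251 CPM in LPC_Ipsil and 314 ± 287 CPM in LNIO_Ipsil. Ranked by FPKM among all genes of its library, Ttr was number 16 in Sham_Ipsil 2, 19 in LNIO_Contra 2, 20 in LPC_Contra 3, 26 in LNIO_Ipsil 3 and 43 in LPC_Ipsil 3. In the other 10 libraries its rank ran from 137 to 2678.

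Folr1, the folate receptor that passes folate into cerebrospinal fluid, was high in the same libraries. It stood at 0.299, 14.7 and 0.553 CPM in Sham_Ipsil, at 0.905, 0.661 and 4.83 CPM in LPC_Ipsil and at 0.834, 1.34 and 13.3 CPM in LPC_Contra. It stood at 1.28, 2.28 and 7.53 CPM in LNIO_Ipsil and at 1.04, 12.9 and 1.04 CPM in LNIO_Contra.

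Clic6, a protein of the chloride intracellular channel family, had the smallest range of the 6, at 13.3-fold. Its levels were 2.75, 36.4 and 6.63 CPM in Sham_Ipsil, 8.20, 6.80 and 21.9 CPM in LPC_Ipsil and 7.56, 12.4 and 29.2 CPM in LPC_Contra. They were 6.45, 13.4 and 29.1 CPM in LNIO_Ipsil and 5.29, 26.1 and 9.08 CPM in LNIO_Contra.

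Kcnj13, an inward rectifier potassium channel of the apical membrane, was close to the limit of counting in most libraries. Outside the highest library of each group it rested on 2 to 17 counts, and in those highest libraries on 36 to 76 counts. In CPM it ran from 0.104 in LPC_Contra 1 to 4.67 in LPC_Contra 3. In Sham_Ipsil it stood at 0.538, 4.39 and 0.854 CPM and in LPC_Ipsil at 0.241, 0.142 and 2.18 CPM.

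Kl encodes Klotho, a co-receptor for fibroblast growth factor signalling that the choroid plexus makes at high level and some neurons also make. It stood at 14.2, 59.3 and 10.4 CPM in Sham_Ipsil, at 6.21, 4.53 and 27.4 CPM in LPC_Ipsil and at 4.02, 7.23 and 62.1 CPM in LPC_Contra. It stood at 13.2, 11.7 and 42.4 CPM in LNIO_Ipsil and at 7.82, 41.7 and 5.48 CPM in LNIO_Contra. The ratio of Ttr counts to Kl counts was not fixed: it ran from 1.72 to 27.3 over the 15 libraries.

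Otx2, the homeobox factor that maintains choroid plexus identity, followed the same libraries. Its levels were 0.717, 7.77 and 0.201 CPM in Sham_Ipsil, 1.51, 0.992 and 4.96 CPM in LPC_Ipsil and 0.834, 1.28 and 6.29 CPM in LPC_Contra. They were 1.89, 2.33 and 6.20 CPM in LNIO_Ipsil and 0.748, 5.67 and 1.58 CPM in LNIO_Contra.

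In all 5 groups, the library with the highest Ttr was also the highest for Folr1, Clic6, Kcnj13, Kl and Otx2. These were Sham_Ipsil 2, LPC_Ipsil 3, LPC_Contra 3, LNIO_Ipsil 3 and LNIO_Contra 2, so saline, LPC, L-NIO and both uninjured sides each had one. For each of the 6 genes these 5 libraries lay above the other 10. Foxj1 and Ccdc153 were also highest there in 5 of 5 groups, and Tmem212 and Dynlrb2 in 4 of 5. Among all 16795 tested genes, 1.21% were highest in the library with the most Ttr in 5 of 5 groups. This way of reading the libraries was chosen after their values were seen, and no test was made of it.

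Other genes of the same cells were read in the same way. Of 40 tested choroid plexus genes beyond the 6, 22 were highest in the high-Ttr library in 5 of 5 groups (55%). Enpp2, which oligodendrocytes also make, was the most abundant of them, at 1152 to 1500 CPM there and 434 to 877 CPM in the other libraries. The other 39 genes summed to 846 to 990 CPM there against 531 to 670 CPM elsewhere. Of 40 genes of the ciliary axoneme, 17 were (42.5%), with a sum of 258 to 351 CPM there against 182 to 249 CPM elsewhere. Of 10 genes of the ependymal surface and neighbouring functions 3 were (30%), and of 7 regulators of cilia 1 was (14.3%). None of the 12 neuroblast, 12 striatal neuron, 10 cortical neuron, 10 hippocampal and septal neuron, 10 meningeal fibroblast, 10 lesion microglia and 10 reactive astrocyte genes was highest there in 5 of 5 groups. With 1.21% over all tested genes, none in lists of this size is near the background. How much ventricle wall or choroid plexus each dissection held was not measured, and its part in these levels was not tested.

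**Figure D2:**
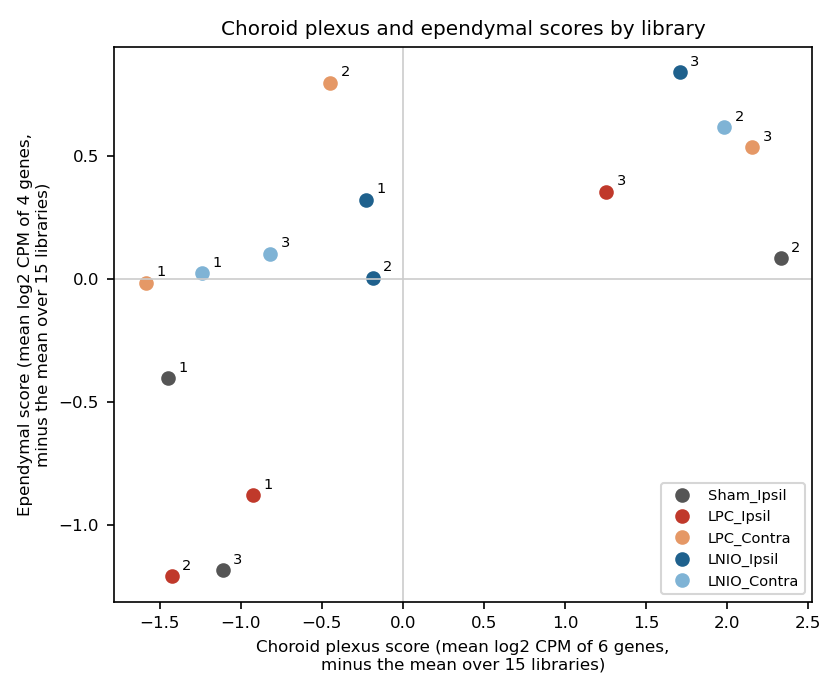
Choroid plexus score against ependymal score of the 15 libraries, each the mean log2 CPM of its genes minus the mean over libraries, coloured by group and numbered by replicate. The 5 libraries with high Ttr, 1 of each group, lie at choroid plexus scores from 1.25 to 2.33, and the other 10 at -0.19 or lower; LPC_Ipsil 1 and 2 and Sham_Ipsil 3 have the lowest ependymal scores.

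Across the 15 libraries the 6 choroid plexus genes correlated with each other at Pearson r from 0.76 to 0.97 over their 15 gene pairs. Over the 10 libraries without the highest Ttr of their group the r ran from -0.31 to 0.83 with a median of 0.43; leaving out libraries by their Ttr level also narrows the range of these genes. The 4 ependymal genes correlated at r from 0.47 to 0.87 over all libraries and from 0.20 to 0.88 over the 10. Pairs of 1 ependymal and 1 choroid plexus gene ran from 0.30 to 0.73 over all libraries. These values describe libraries that share groups and dissection, and they carry no test.

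Among 15165 other genes, the 5 most like the choroid plexus score were Cldn2 (r = 0.992), Kcne2 (0.976), Aqp1 (0.971), Tmem72 (0.969) and F5 (0.967), over 15 libraries. All 5 are genes of the choroid plexus list. Cldn2 is a tight junction protein, Aqp1 the water channel of the epithelium and Kcne2 a potassium channel subunit. Over the 10 libraries without the highest Ttr of their group, Cldn2 still had an r of 0.931 and the other 4 ran from 0.735 to 0.785. The 5 most like the ependymal score were Lrrc36 (0.940), Mapk15 (0.903), Ak7 (0.901), Hdc (0.899) and Ttll6 (0.891). Ak7 is an adenylate kinase of motile cilia, Mapk15 a kinase that acts in ciliogenesis, Ttll6 a tubulin polyglutamylase and Hdc the enzyme that makes histamine. Their r over the 10 libraries ran from 0.834 to 0.915.

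The first comparison asked whether the lesion sites differed from the saline site. None of the 10 genes passed edgeR's quasi-likelihood test (Benjamini-Hochberg adjusted p under 0.05) in LPC_Ipsil against Sham_Ipsil, where 5.19% of all tested genes did, 4.19% higher and 0.994% lower. One of them, Foxj1, had an unadjusted p under 0.05, and neither DESeq2, which called 1512 of all genes, nor limma on FPKM, which called 3, called any. Foxj1 had a log2 fold change of 0.65 ± 0.22 (SE; adjusted p = 0.108 by edgeR), with LPC_Ipsil 2 and Sham 2 at nearly the same level. Of the 4 ependymal genes 1 was positive, Foxj1, and their median was -0.12, where the median of all genes was 0.01. Without LPC_Ipsil 3, Ccdc153 stood at -1.35 ± 0.45 (adjusted p = 0.0771 by edgeR), and still none of the 10 was called, against 9.88% of all genes.

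The choroid plexus genes had log2 fold changes in LPC_Ipsil against Sham_Ipsil of -1.25 ± 1.80 for Ttr, -1.27 ± 1.54 for Folr1, -1.18 ± 1.49 for Kcnj13, -1.14 ± 1.20 for Kl, -0.30 ± 0.92 for Clic6 and -0.20 ± 1.17 for Otx2. For Otx2 and Clic6 the SE was several times the difference. Without Sham_Ipsil 2 all 6 were positive, from 0.056 for Kl to 2.46 for Otx2, with Ttr at 2.15. Without LPC_Ipsil 3, Ttr stood at -3.23 and Otx2 at -1.19. The spread of these genes between libraries of a group was among the highest of all genes: their biological coefficient of variation lay between percentile 99.1 and 99.8 of the 16795 tested, against 57.9 for Foxj1 and 92.0 to 94.8 for the other ependymal genes.

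In LNIO_Ipsil against Sham_Ipsil 0 of the 10 were called by edgeR, DESeq2 or limma on FPKM. Over all genes edgeR called 0%, DESeq2 237 genes and limma 1. Foxj1 and Tmem212 had an unadjusted p under 0.05. The log2 fold change was 0.59 ± 0.22 for Foxj1 (adjusted p = 0.418 by edgeR) and 1.38 ± 0.55 for Tmem212 (adjusted p = 0.466 by edgeR). The 3 L-NIO libraries lay above the 3 sham libraries for Tmem212 and for none of the other 9; over all genes, 10% did so. The 4 ependymal genes were all on the positive side with a median of 0.84, where the median of all genes was -0.02. Of the choroid plexus genes, 2 of 6 were positive, with Clic6 at 0.11 ± 0.92, Otx2 at 0.30 ± 1.15, Ttr at -0.55 ± 1.77, Folr1 at -0.45 ± 1.48, Kcnj13 at -0.59 ± 1.43 and Kl at -0.31 ± 1.17.

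The uninjured sides were compared with the same sham libraries, so these differences are not independent of those above. In LPC_Contra against Sham_Ipsil edgeR called 0 of the 10 and 0.00595% of all genes, with Foxj1 and Tmem212 at an unadjusted p under 0.05. Foxj1 stood at 0.71 ± 0.22 and Tmem212 at 1.54 ± 0.55 (adjusted p = 0.492 for each by edgeR). Tmem212 was higher in all 3 contralateral libraries than in all 3 sham libraries, as were 7.06% of all genes. In LNIO_Contra against Sham_Ipsil edgeR called 0 of the 10 and 0% of all genes, and Tmem212 stood at 1.36 ± 0.55 (adjusted p = 0.9996 by edgeR) with an unadjusted p under 0.05. Neither DESeq2, with 28 and 2 calls over all genes, nor limma on FPKM, with 1 in each, called any of the 10 in these 2 comparisons. The ependymal medians were thus on the positive side of sham in the uninjured tissue too, at 0.79 and 0.62, beside 0.84 at the L-NIO site and -0.12 at the LPC site. The choroid plexus medians were -0.11 and -0.14, beside -0.38 and -1.16, and their sign rested on the libraries used: without the highest-Ttr library of each group, a setting chosen after the values were seen, they were 1.07 and 0.57, beside 1.42 and 0.41. Sham libraries 1 and 3 had the lowest Foxj1 of all libraries, and all 4 comparisons share them.

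Between the lesions, LNIO_Ipsil against LPC_Ipsil, edgeR called 0 of the 10 and 0% of all genes, and DESeq2 called 0 of the 10 and 18 of all genes. Tmem212 had an unadjusted p under 0.05 and stood at 1.46 ± 0.55 (adjusted p = 0.559 by edgeR). Its 3 L-NIO libraries lay above its 3 LPC libraries, as did 6.07% of all genes. Without LPC_Ipsil 3 Ccdc153 was called, at 2.11 ± 0.45 (adjusted p = 0.0363 by edgeR), where 1.58% of all genes were called and 0.202% were called higher. Without it Tmem212 stood at 2.22 ± 0.59 (adjusted p = 0.0775 by edgeR) and Dynlrb2 at 1.95 ± 0.63 (adjusted p = 0.160 by edgeR). Foxj1 stood at -0.06 ± 0.22 with all libraries and at 0.05 ± 0.24 without that one. The choroid plexus median was 0.64 with all libraries and 2.16 without that one, with 0 of 6 called in both fits.

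The LPC lesion was then compared with its own opposite side. The edgeR test called 0 of the 10 genes and 0% of all genes, and 1 of the 10, Tmem212, had an unadjusted p under 0.05; DESeq2 called 0 of the 10 and 700 of all genes, and limma on FPKM 0 of the 10 and 0 of all genes. Tmem212 stood at -1.63 ± 0.55 (adjusted p = 0.183 by edgeR), with the 3 lesion libraries below the 3 contralateral ones, as were those of 6.6% of all genes. Ccdc153 stood at -0.98 ± 0.53, Dynlrb2 at -1.03 ± 0.60 and Foxj1 at -0.06 ± 0.22.

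LPC_Ipsil 3 decided these calls. Without it, 2 of the 10 genes were called by edgeR where 5.64% of all genes were, 0.286% lower. Tmem212 stood at -2.38 ± 0.59 (adjusted p = 0.0241 by edgeR) and Ccdc153 at -2.07 ± 0.45 (adjusted p = 0.0103 by edgeR). Dynlrb2 stood at -1.88 ± 0.64 (adjusted p = 0.125 by edgeR) and was not called. Foxj1, which heads the same programme, stood at -0.18 ± 0.24. Against Sham_Ipsil in this fit, Tmem212 stood at -0.84 ± 0.61 (adjusted p = 0.461 by edgeR) and Ccdc153 at -1.35 ± 0.45, neither called. The contralateral side itself lay above Sham_Ipsil with all libraries, by 1.54 ± 0.55 for Tmem212 and 0.72 ± 0.52 for Ccdc153, neither called. Between the LPC sides, the choroid plexus median moved from -0.95 to -2.45 without LPC_Ipsil 3, with Ttr at -2.94 ± 2.23, and 0 of 6 were called in both fits. Leaving out the library with the highest Ttr of every group, a setting chosen after the values were seen, gave the same 2 calls. This setting also leaves out LPC_Ipsil 3, so the 2 fits are not independent. Tmem212 then stood at -2.46 ± 0.54 (adjusted p = 0.0287 by edgeR) and Ccdc153 at -1.94 ± 0.45 (adjusted p = 0.0394 by edgeR). In that setting 3.75% of all genes were called and 0.0655% lower. LPC_Ipsil 3 was both the library with little lesion microglia RNA and the one with high choroid plexus genes in its group, so these 2 features cannot be told apart in this group.

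**Figure D3:**
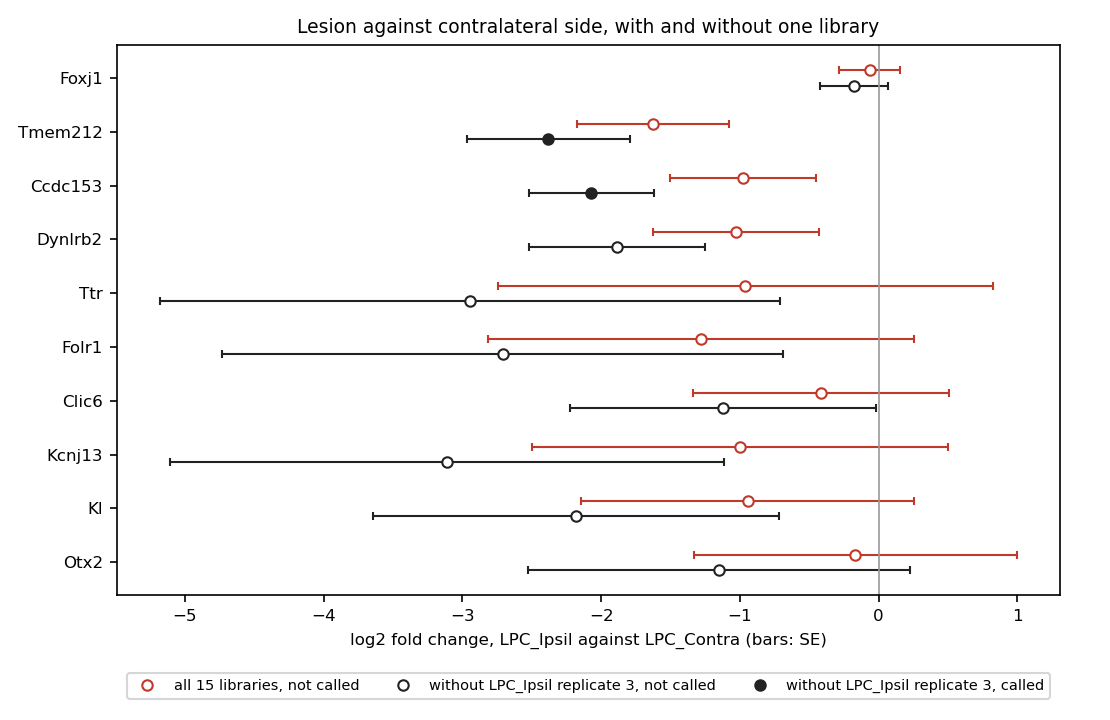
Log2 fold change of the 10 genes in LPC_Ipsil against LPC_Contra with its SE, with all 15 libraries (red) and without LPC_Ipsil 3 (black); filled points are called by edgeR. Tmem212 and Ccdc153 are called only in the second fit, Foxj1 lies near 0 in both, and the choroid plexus genes have SEs that are wide in both.

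The L-NIO lesion was compared with its opposite side in the same way, without pairing same-numbered libraries. The edgeR test called 0 of the 10 genes and 0% of all genes, none of the 10 had an unadjusted p under 0.05, and DESeq2 called 0 of the 10 and 180 of all genes, and limma on FPKM 0 of the 10 and 0 of all genes. Foxj1 stood at 0.19 ± 0.22, Tmem212 at 0.02 ± 0.51, Ccdc153 at 0.32 ± 0.51 and Dynlrb2 at 0.12 ± 0.56, and the choroid plexus median was 0.07 with 3 of 6 positive. Without the highest-Ttr library of each group that median was 0.88, with 6 of 6 positive and 0 called. The difference between the 2 side-to-side comparisons was itself tested: Tmem212 differed by -1.64 ± 0.74 (unadjusted p = 0.0439, adjusted p = 0.99999 by edgeR) and Ccdc153 by -1.30 ± 0.74 (adjusted p = 0.99999), so no difference between the LPC and L-NIO sides passed the test. Over all 5 groups together, edgeR called 0 of the 10 where it called 2.88% of all genes, with Foxj1 and Tmem212 at an unadjusted p under 0.05. DESeq2 called Tmem212 (adjusted p = 0.0471), as it did 8.27% of all genes. Without LPC_Ipsil 3, edgeR called 2 of the 10 over the 5 groups, and 6.47% of all genes.

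In LPC_Ipsil 1 and 2, Ccdc153 parted from Foxj1 within single libraries, which a ratio of counts shows without any scaling. Foxj1 counts per Ccdc153 count were 7.96 in LPC_Ipsil 1 (95% exact counting interval 5.36 to 12.3) and 12.8 in LPC_Ipsil 2 (8.01 to 21.6), from 223 and 28 counts and from 243 and 19 counts. In LPC_Ipsil 3 the ratio was 2.73 (2.15 to 3.50), and over the 13 libraries other than LPC_Ipsil 1 and 2 it ran from 1.92 to 3.45. The intervals of LPC_Ipsil 1 and 2 lay above all 13 of those values. Foxj1 counts per Dynlrb2 count were 44.6 in LPC_Ipsil 1 (18.8 to 139) and 20.3 in LPC_Ipsil 2 (11.4 to 39.7), from 5 and 12 Dynlrb2 counts, and 5.78 to 15.4 in the other 13. The highest of those, LPC_Contra 1, had an interval of 8.96 to 28.6 that overlaps both, so this ratio did not set the 2 lesion libraries apart from it beyond counting error. Foxj1 counts per Tmem212 count were 20.3 in LPC_Ipsil 1 (11.1 to 41.2), 40.5 in LPC_Ipsil 2 (18.3 to 111) and 3.91 to 20.8 in the other 13. The highest of those, Sham_Ipsil 3, had an interval of 9.31 to 57.9 that overlaps both. This ratio therefore did not set either lesion library apart from it beyond counting error. The ratios were formed after the values were seen, and their intervals cover counting error only.

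LPC_Ipsil 1 and 2 were also the libraries with the highest lesion microglia sums, 2645 and 1493 CPM. The L-NIO lesions, at 489 to 918 CPM, had Foxj1 to Ccdc153 ratios of 2.25, 3.45 and 1.92, beside 2.21 to 3.21 in the sham and contralateral libraries. The part of the lesion cells in the low ependymal genes was not tested. In bulk RNA, fewer ependymal cells and less RNA per cell cannot be told apart.

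**Figure D4:**
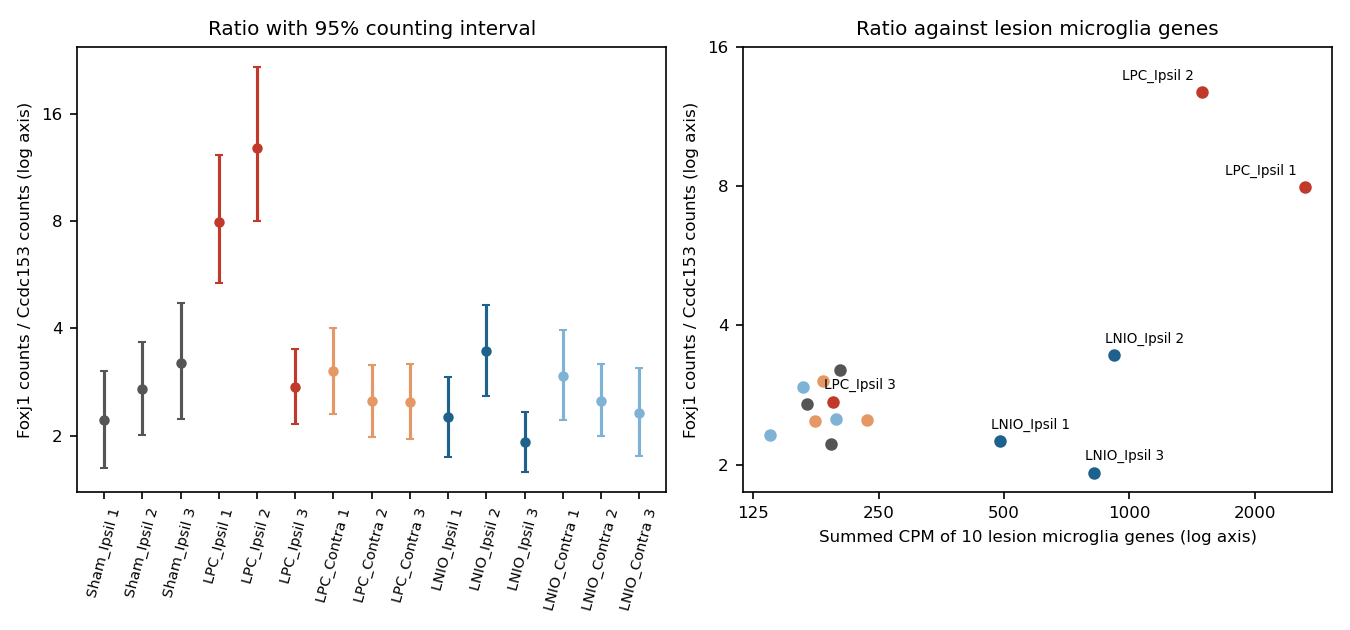
Left, Foxj1 counts per Ccdc153 count in each library with the 95% counting interval (log axis); right, the same ratio against the summed CPM of 10 lesion microglia genes (both axes log), colours by group as on the left. LPC_Ipsil 1 and 2, at 7.96 and 12.8, stand above the 13 other libraries at 1.92 to 3.45, and LPC_Ipsil 3 lies among the sham and contralateral libraries.

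Other genes of the motile cilium were mostly on the negative side between the LPC sides, with smaller differences. Of 40 axoneme genes tested, 0 were called in any of the 7 comparisons. That is nearly the background: over all genes edgeR called 5.19% in LPC_Ipsil against Sham_Ipsil, 0.00595% in LPC_Contra against Sham_Ipsil and 0% in the other 5. In LPC_Ipsil against LPC_Contra 6 of 40 were positive, with a median log2 fold change of -0.28, where the median of all genes was 0.01. Without LPC_Ipsil 3, 3 of 40 were positive with a median of -0.44, and 0 were called against 5.64% of all genes. In both LPC_Ipsil 1 and 2, 16 of 40 lay below every LPC_Contra library (40%), as did 3 of the 4 ependymal genes, 0 of the 6 choroid plexus genes and 11.9% of all genes. These 2 libraries were singled out after the values were seen. The library left out of this count, LPC_Ipsil 3, had the highest axoneme sum of its group, at 258 CPM. In LNIO_Ipsil against LNIO_Contra 35 of 40 were positive, with a median of 0.27. In LPC_Ipsil against Sham_Ipsil 13 of 40 were positive (median -0.18), and in LNIO_Ipsil against Sham_Ipsil 33 of 40 (median 0.32). The first of these medians was -0.29 without LPC_Ipsil 3, with 0 called, and -0.03 without the highest-Ttr library of each group, where 1 gene, Dnah9, a dynein heavy chain, was called lower.

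The most abundant axoneme genes, chosen by level, were near 0 between the LPC sides, apart from Cfap65. Ccdc39, which sets the spacing of dynein arms, stood at 0.11 ± 0.25, Cfap54, a protein of the central apparatus, at 0.09 ± 0.24, and Drc1, a subunit of the nexin-dynein regulatory complex, at -0.02 ± 0.17. Cfap65 stood at -0.49 ± 0.33, and at -0.92 ± 0.32 without LPC_Ipsil 3 (adjusted p = 0.147 by edgeR). Its 2 lowest libraries of the series were LPC_Ipsil 1 and 2 at 7.96 and 9.25 CPM. The lowest Ccdc39 and Cfap54 levels of the series were both in LPC_Contra 2, at 16.2 and 17.0 CPM. In LPC_Ipsil against Sham_Ipsil, Ccdc39 stood at -0.43 ± 0.25, Cfap54 at -0.27 ± 0.24, Drc1 at -0.02 ± 0.17 and Cfap65 at -0.43 ± 0.33, none called.

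The transcription factors upstream of motile cilia had a median log2 fold change of 0.04 between the LPC sides, over 7 tested regulators, and of 0.06 without LPC_Ipsil 3. Of the 7, 0 were called in any of the 7 comparisons, 6 of which had 0 or 1 call over all genes. Between the LPC sides, Rfx3, an X-box factor, stood at 0.29 ± 0.21, Rfx4 at 0.04 ± 0.17, Rfx2 at 0.08 ± 0.22 and Myb, which acts early in multiciliated cells, at 0.11 ± 0.30. Across the 15 libraries the 7 regulators had a median r of -0.06 with the ependymal score, where the 40 axoneme genes had 0.59. Their levels thus did not follow the ependymal genes and may not report on ependymal cells.

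Among 10 tested genes of the ependymal surface and neighbouring functions, 2 rose in LPC_Ipsil against Sham_Ipsil, where 4.19% of all genes rose, and 0 were called in the other 6 comparisons, which had 0 or 1 call over all genes. Vim, an intermediate filament of ependyma and of reactive astrocytes, rose by 2.41 ± 0.54 (adjusted p = 0.0277 by edgeR), and Pltp, a phospholipid transfer protein, by 0.69 ± 0.17 (adjusted p = 0.0349 by edgeR). On the uninjured side Pltp stood at 0.96 ± 0.17 in LPC_Contra against Sham_Ipsil (adjusted p = 0.289 by edgeR), and at -0.27 ± 0.17 between the LPC sides. In the same comparison 6 of 10 reactive astrocyte genes rose, against 4.19% of all genes, Vim among them, and Gfap by 2.05 ± 0.46 (adjusted p = 0.027 by edgeR). Aqp4, the water channel of astrocytes and ependyma, stood at 0.68 ± 0.22 (adjusted p = 0.0928 by edgeR), and Tppp3, a tubulin-binding protein, at 0.07 ± 0.25. Of the 10 lesion microglia genes 9 rose there. Without LPC_Ipsil 3, where 9.88% of all genes were called, 3 of 10 surface genes rose (Vim, Pltp and Aqp4), with 8 of 10 reactive astrocyte and 10 of 10 lesion microglia genes. Between the LPC sides without that library, where 5.36% of all genes rose, 2 surface genes did, Vim by 2.11 ± 0.36 and Aqp4 by 0.99 ± 0.22 (adjusted p = 0.00202 and 0.0135 by edgeR).

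Of the 40 other choroid plexus genes tested, 0 were called in any of the 7 comparisons, of which LPC_Ipsil against Sham_Ipsil alone had more than 1 call over all genes. Their median log2 fold change was -0.35 in LPC_Ipsil against Sham_Ipsil, -0.21 in LNIO_Ipsil against Sham_Ipsil, -0.38 in LPC_Ipsil against LPC_Contra and 0.05 in LNIO_Ipsil against LNIO_Contra. Without LPC_Ipsil 3 the first was -0.84 and the third -0.72, with 0 called. Without the highest-Ttr library of each group the 4 medians were 0.16, 0.35, 0.13 and 0.38, with 1 call, Slc31a1, a copper transporter, higher in LPC_Ipsil against Sham_Ipsil. The most abundant were Enpp2 (autotaxin), Slc12a2 (a sodium, potassium and chloride cotransporter), Trpm3 (a cation channel) and Slc4a2 (an anion exchanger). Enpp2 ran from 434 to 1500 CPM, and Trpm3 from 20.7 to 107 CPM, both with their highest library among those with high Ttr. Slc12a2, at 204 to 358 CPM, and Slc4a2, at 36.1 to 72.5 CPM, are used by many cells and varied less. Both also had their highest library among those with high Ttr, LPC_Ipsil 3. For Slc12a2, Sham_Ipsil 1 was nearly as high at 356 CPM. Of the 40, 22 correlated with the choroid plexus score at r over 0.8 across the 15 libraries, as did 0.310% of all candidate genes.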

How the data were processed

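Total RNA of 15 corpus callosum samples had been depleted of ribosomal RNA, poly(A) selected and sequenced as paired ends, per the labels' protocols. As deposited, 1 table gives raw counts (whole reads for each gene symbol) and another gives FPKM, in which the authors scaled fragments by gene length and depth. The submitters' processing notes list HISAT2 2.2.1, R 4.4.2 and GRCm39. Which program counted the reads, on which annotation and with what strand setting, is not given in the sources used here, and overlapping or antisense genes are therefore uncertain. All columns matched a library (0 unmatched). The 10 genes and the 11 other gene lists were chosen with earlier results of these data known, and support nothing by their choice.

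Counts were fitted with edgeR 4.0.16 (R 4.3.3; TMM, robust quasi-likelihood, minimum count 10 and total 15, 1 mean per group over 15 libraries), with Benjamini-Hochberg adjustment over 16795 genes and a threshold of 0.05. The method was tested on simulated data in which every gene had the common dispersion of 0.0453. That is below the dispersion of each of the 10 genes except Foxj1. The simulation therefore does not show how often changes in those genes would be called. Fold changes are log2 with SE = |log2 fold change| / sqrt(F). Alternatives were DESeq2 1.42.0 (test, and size factors in edgeR), no filter, limma 3.58.1 on log2(FPKM + 0.1), a replicate block, and leaving libraries out. Scores are mean log2 CPM. Ratio intervals are exact binomial (95%). Named beside the 10 genes are up to 4 genes per list with the highest mean log2 CPM and, per score, the 5 genes with the highest r. No label says that replicate numbers pair libraries. Same-numbered libraries deviated together in all 3 pairs only for LNIO_Ipsil and LNIO_Contra (r = 0.599, 0.356 and 0.249). The main fit took no account of this likeness. The replicate block was a single factor shared by all 5 groups, so it also tied same-numbered libraries of the other groups. No test paired the L-NIO sides alone.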

Additional observations from a re-analysis of the deposited data

How the results depend on the processing

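The count of the 10 genes called stayed at 0 in each comparison under every alternative run, with these exceptions. Without LPC_Ipsil 3 it was 1 in LNIO_Ipsil against LPC_Ipsil, 2 in LPC_Ipsil against LPC_Contra and 2 over the 5 groups; leaving out the other libraries in turn gave 0. The count was 2 in LPC_Ipsil against LPC_Contra without the highest-Ttr library of each group, chosen after seeing the data. That setting also leaves out LPC_Ipsil 3. DESeq2 gave 1 over the 5 groups. The cause of each was not tested. Single-gene log2 fold changes were recomputed for the 4 ependymal genes in all 7 comparisons and the 6 choroid plexus genes in LPC_Ipsil and LNIO_Ipsil against Sham_Ipsil, 40 in all, and these kept their direction under DESeq2, its size factors and no filter. In LPC_Ipsil against Sham_Ipsil the direction turned under limma for Clic6 (0.26) and Otx2 (0.44), under the replicate block for Clic6 (0.060), and without the highest-Ttr libraries for Ttr (0.15), Folr1 (0.84), Clic6 (0.67) and Otx2 (1.46). In LNIO_Ipsil against Sham_Ipsil it turned under limma for Ttr (0.91) and Folr1 (0.76), under the replicate block for Ttr (0.68), and without the highest-Ttr libraries for Ttr (1.77), Folr1 (2.03) and Kl (0.022). The choroid plexus medians against Sham_Ipsil turned positive without the highest-Ttr libraries in all 4 comparisons (0.41 to 1.42), under limma in all but LPC_Ipsil (0.30 to 0.68) and under the replicate block in LNIO_Ipsil (0.11).

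Leaving out 1 library in turn turned these directions, given as lowest to highest. In LPC_Ipsil against Sham_Ipsil: Tmem212 -0.84 to 0.57, Ccdc153 -1.35 to 0.17, Dynlrb2 -1.01 to 0.22, Ttr -3.23 to 2.15, Folr1 -2.70 to 2.28, Clic6 -1.02 to 1.39, Kcnj13 -3.29 to 0.26, Kl -2.38 to 0.056 and Otx2 -1.19 to 2.46. In LNIO_Ipsil against Sham_Ipsil: Ttr -1.61 to 2.85, Folr1 -1.51 to 3.10, Clic6 -0.61 to 1.80, Kcnj13 -1.99 to 0.85, Kl -1.16 to 0.89 and Otx2 -0.43 to 2.96. Foxj1 ran from -0.23 to 0.067 in LNIO_Ipsil against LPC_Ipsil and from -0.20 to 0.041 in LPC_Ipsil against LPC_Contra. In LNIO_Ipsil against LNIO_Contra, Tmem212 ran from -0.18 to 0.44, Ccdc153 from -0.078 to 0.57 and Dynlrb2 from -0.21 to 0.44.

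Over all genes, LPC_Ipsil against Sham_Ipsil had 871 calls, 524 with no filter, 1512 by DESeq2, 3 by limma and 0 to 1660 with 1 library left out. Where edgeR called 0 or 1, DESeq2 called 237 (LNIO_Ipsil against Sham_Ipsil), 28 and 2 (LPC_Contra and LNIO_Contra against Sham_Ipsil), 18 (LNIO_Ipsil against LPC_Ipsil), 700 (LPC sides) and 180 (L-NIO sides). Leaving out LPC_Ipsil 3 gave 948 for the LPC sides and 266 between the lesions, and leaving out the highest-Ttr libraries gave 630 for the LPC sides, 95 for the L-NIO sides and 80 for LNIO_Ipsil against Sham_Ipsil. Over the 5 groups it was 484, 276 with no filter, 1389 by DESeq2, 1 by limma, 271 with the replicate block and 1 to 1087 with 1 library left out. The replicate block, shared by all 5 groups, changed no call of the 10 genes. With it, Foxj1 stood at 0.19 and Tmem212 at 0.06 between the L-NIO sides. Over the 10 pairs of groups, 7 of 30 same-numbered pairs correlated at r over 0.1 (-0.316 to 0.599). Tmem212, Dynlrb2 and Kcnj13 rest on few counts, and depth limits what their levels can show.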

Other observations

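Markers of tissue next to the corpus callosum varied between libraries without following the choroid plexus genes. The summed level of 12 striatal neuron genes ran from 451 CPM in Sham_Ipsil 1 to 3109 CPM in LPC_Contra 1, and Penk, the enkephalin precursor, from 68.9 to 642 CPM. The sums were 517 to 1822 CPM in LNIO_Ipsil and 1556 to 2569 CPM in LNIO_Contra, and 0 of the 12 genes were called in any of the 7 comparisons. The 10 meningeal fibroblast genes summed to 75.8 to 158 CPM, and in LNIO_Contra against Sham_Ipsil 1 of 10 was positive, with a median log2 fold change of -1.09 and 0 called.

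The 12 neuroblast genes of the subventricular zone, which lies just under the ependyma, summed to 312 to 420 CPM. Of them 1 was called in any comparison: Sox11, a transcription factor of immature neurons, rose by 0.66 ± 0.16 in LPC_Ipsil against Sham_Ipsil (adjusted p = 0.0307 by edgeR), where 4.19% of all genes rose. It stood at 0.56 ± 0.16 in LPC_Contra against Sham_Ipsil, not called, and at 0.10 ± 0.16 between the LPC sides. Dcx, a microtubule protein of migrating neuroblasts, stood at 0.16 ± 0.16 in LPC_Ipsil against Sham_Ipsil. The 10 cortical neuron genes summed to 938 to 1509 CPM with 1 called lower, Neurod6, in that comparison, where 0.994% of all genes were lower. The 10 hippocampal and septal neuron genes summed to 140 to 317 CPM with 0 called with all libraries. Without LPC_Ipsil 3, 1 of them, Spink8, was called lower in LPC_Ipsil against Sham_Ipsil, where 1.88% of all genes were lower. Sox11 and Neurod6 were still called there. Without the highest-Ttr library of each group, Fibcd1 and Spink8 were called lower in that comparison, where 0.667% of all genes were lower.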
